A study of Drosophila melanogaster with 4 samples.

Results

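The odorant-binding protein (Obp) genes of Drosophila melanogaster were examined for binding of Doublesex, the transcription factor that ends the fly's sex determination cascade. All protein-coding genes whose symbol is Obp followed by a number were taken from the Ensembl models of the dm6 assembly, which gave 51 genes of 13968. For each gene, peak summits within 1 kb of any of its transcript starts, or inside the gene, were recorded. The chromatin came from males and females together, as whole prepupae of 24 h per the labels, of a line stably expressing dsx with green fluorescent protein (eGFP) at its C terminus. The labels' description names an anti-GFP antibody for the precipitation, while their antibody field names dsx. The 4 biological replicates, each with 1 technical replicate, form 1 group, so no conditions or sexes could be compared. Control samples were not analysed here, and read depth is unknown because the peak lists hold no read counts. In whole animals, strong binding in few cells and weak binding in many cells cannot be told apart. Which isoform of Doublesex carried the tag was not examined.

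Odorant-binding proteins are small secreted proteins with a hydrophobic pocket. Many are released by support cells into the fluid of olfactory and taste bristles, where they bind odorants, tastants or pheromones and carry or buffer them near the receptors. Others are made in the fat body, the gut or the reproductive tract, and several are transferred to females in seminal fluid. The genes are short and often stand in tandem, the product of repeated gene duplication. Doublesex is made in male and female forms that share a DNA-binding domain of the DMRT type and differ at the C terminus.

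Each replicate has its own list of 30000 summits, and a pooled list of the same length was made from replicates 2, 3 and 4. The 9154 strongest pooled summits form the reproducible list. Every summit carries a signal value, which is the authors' own and is used here only to rank or describe summits within a list, with rank 1 the strongest. A replicate was taken to match a summit where it had one of its own within 100 bp.

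Few Obp genes had a reproducible summit. They were Obp83g, Obp56i and Obp99b, 3 of 51 (5.88%), against 28.9% of all protein-coding genes. Obp genes are short, with a median span of 788 bp (465 to 10582 bp) against 2164 bp for protein-coding genes, and a short gene has less sequence in which a summit can fall. Among Obp genes of at most 2 kb, 2 of 47 (4.26%) had a reproducible summit, against 15.9% of all 6535 protein-coding genes of that size. In the longer pooled list 12 of 51 Obp genes (23.5%) had a summit, against 43.9% of all genes. For genes of at most 2 kb those shares were 21.3% (10 of 47) and 30.7%. In both lists the Obp genes of at most 2 kb were below the share of all genes of that size. Lengths within that size class were not matched, and the reproducible share rests on 2 Obp genes.

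The single replicates gave the same order. In replicate 1, 13 Obp genes (25.5%) had a summit, against 49.9% of all genes. Replicate 2 held 10 (19.6%), against 50.8%. Replicate 3 held 15 (29.4%), against 44.5%, and replicate 4 held 14 (27.5%), against 45%. The mean was 13 ± 2.16 Obp genes (SD, n = 4), or 25.5% ± 4.24, against 47.5% ± 3.27 of all protein-coding genes. The ranges of these shares over the 4 replicates did not overlap, but all genes are longer than Obp genes. Among genes of at most 2 kb the differences were smaller. There the Obp shares were 21.3%, 17%, 25.5% and 23.4% in replicates 1 to 4, against 35.5%, 37.3%, 31% and 30.5%. In all 4 lists a summit was present at 7 Obp genes (13.7%), against 35.5% of all genes, and in at least 1 list at 19 (37.3%), against 60.5%. For genes of at most 2 kb those shares were 10.6% against 21.6%, and 31.9% against 46.9%. The 7 genes were Obp83g, Obp56i, Obp99b, Obp57d, Obp83cd, Obp83ef and Obp99c. The remaining 32 Obp genes (62.7%) had no summit in any replicate list, against 39.5% of all genes.

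**Figure D1:**
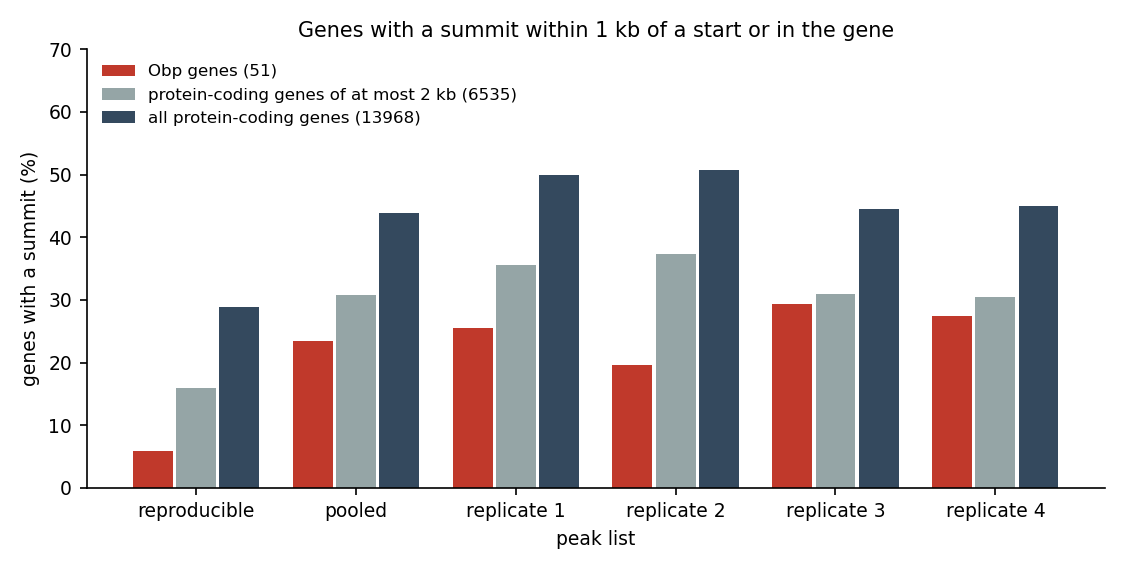
Share of genes (%) with a summit within 1 kb of a transcript start or in the gene, for the reproducible list, the pooled list and each of the 4 replicate lists. Bars stand for the 51 Obp genes, the 6535 protein-coding genes of at most 2 kb and all 13968 protein-coding genes, and in every list the Obp bar is the lowest.

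Obp83g had the highest-ranked summit of the family in the pooled and reproducible lists and in replicates 1 and 2, and Obp56i had it in replicates 3 and 4. It is a 632 bp gene (FBgn0046875) on the reverse strand at chr3R:6111671-6112302 of dm6. Its reproducible summit lay at position 6112563, 261 bp upstream of the start, outside any gene and with no other start within 1 kb. Its signal value was 701, rank 2661 of 9154. The 4 replicates placed it at rank 1523, 2838, 4448 and 2820 of their own lists, with signal values of 205.3, 182.9, 145.5 and 180.2. All 4 matched it within 100 bp. A weaker pooled summit at 6112768 (172.1, rank 13299) sits 205 bp farther upstream as a shoulder, that is, a weaker summit close above a stronger one in coordinate.

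Obp99b (FBgn0039685, chr3R:29716254-29716896, reverse strand) is also named turn on sex-specificity, after its sex-biased expression in fat cells of the adult head. Its reproducible summit at 29717142 was 246 bp upstream of a start, in intergenic sequence, with a signal value of 368.5 and rank 6045. Replicates 1 to 4 ranked it 8468, 6673, 6906 and 6899, with signal values of 57.3, 97.67, 101.2 and 91.76. Replicate 1, which was not used for the pooled list, ranked it lower than the other 3, which lay within 233 ranks of each other. A second summit farther upstream, at 29717727 (119.3, rank 17818), was matched by all 4 replicates and stood about as near to the start of CG15506, 936 bp away, as to that of Obp99b, 831 bp away.

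The sequences around these summits are shown because they are the sites that put Obp83g and Obp99b in the reproducible list. They are compared with the strongest summit beside any Obp gene, which lies between Obp99c and dmrt99B, and with the summit at the Obp83cd start. Each is the forward strand of dm6, 50 bp to either side of the summit, from the RefSeq copy of the assembly. Capitals mark a match to the longer degenerate Doublesex consensus, which here holds the 7-base core ACAATGT on the reverse strand. The windows are chr3R:6112513-6112613 for Obp83g, chr3R:29717092-29717192 for Obp99b, chr3R:29691126-29691226 upstream of Obp99c and chr3R:6107979-6108079 for Obp83cd.
Obp83g: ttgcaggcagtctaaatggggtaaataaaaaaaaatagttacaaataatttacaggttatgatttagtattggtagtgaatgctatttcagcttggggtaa
Obp99b: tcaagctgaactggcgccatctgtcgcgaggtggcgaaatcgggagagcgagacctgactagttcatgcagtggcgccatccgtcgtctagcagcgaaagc
Upstream of Obp99c: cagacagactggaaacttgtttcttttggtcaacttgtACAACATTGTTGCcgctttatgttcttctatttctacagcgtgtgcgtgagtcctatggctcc
Obp83cd: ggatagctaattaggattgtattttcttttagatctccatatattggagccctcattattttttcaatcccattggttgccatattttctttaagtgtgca

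The 4 windows differ in composition. The Obp83g and Obp83cd windows are AT-rich, with 30.7% and 32.7% G and C, whereas the Obp99b window has 59.4% and the one upstream of Obp99c 43.6%. No capital letters stand in the Obp83g, Obp99b and Obp83cd windows, because neither the core nor the longer consensus was found there.

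Obp56i, one of the Obp proteins of seminal fluid, was the only family member with a pair of reproducible summits. It spans chr2R:19864717-19868714 (FBgn0043532, forward strand) and is 1 of 4 Obp genes longer than 2 kb. Its first summit lay at 19864471, 246 bp upstream of the start (615.1, rank 3156). The strongest summit of the gene ranked 3572, 4167, 2813 and 2130 in replicates 1 to 4, with signal values of 115.9, 139, 207.9 and 219.1. In replicate 4 that summit stood at 19864575, 104 bp from the reproducible one and so just past the 100 bp used for a match.

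The second Obp56i summit was inside the gene, in an intron, at 19867474 and 614 bp upstream of its inner start (341.7, rank 6620). Replicates 1 to 4 ranked it 5063, 5192, 12897 and 8967. It was thus weaker than the first summit in all 4 replicates, and it was matched within 100 bp in each. The pooled list added 3 more summits at Obp56i, at ranks 12432, 14148 and 24166, of which the first and second are shoulders on the higher-coordinate side of the reproducible ones. No other protein-coding gene overlapped or had a start within 1 kb of any of these.

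**Figure D2:**
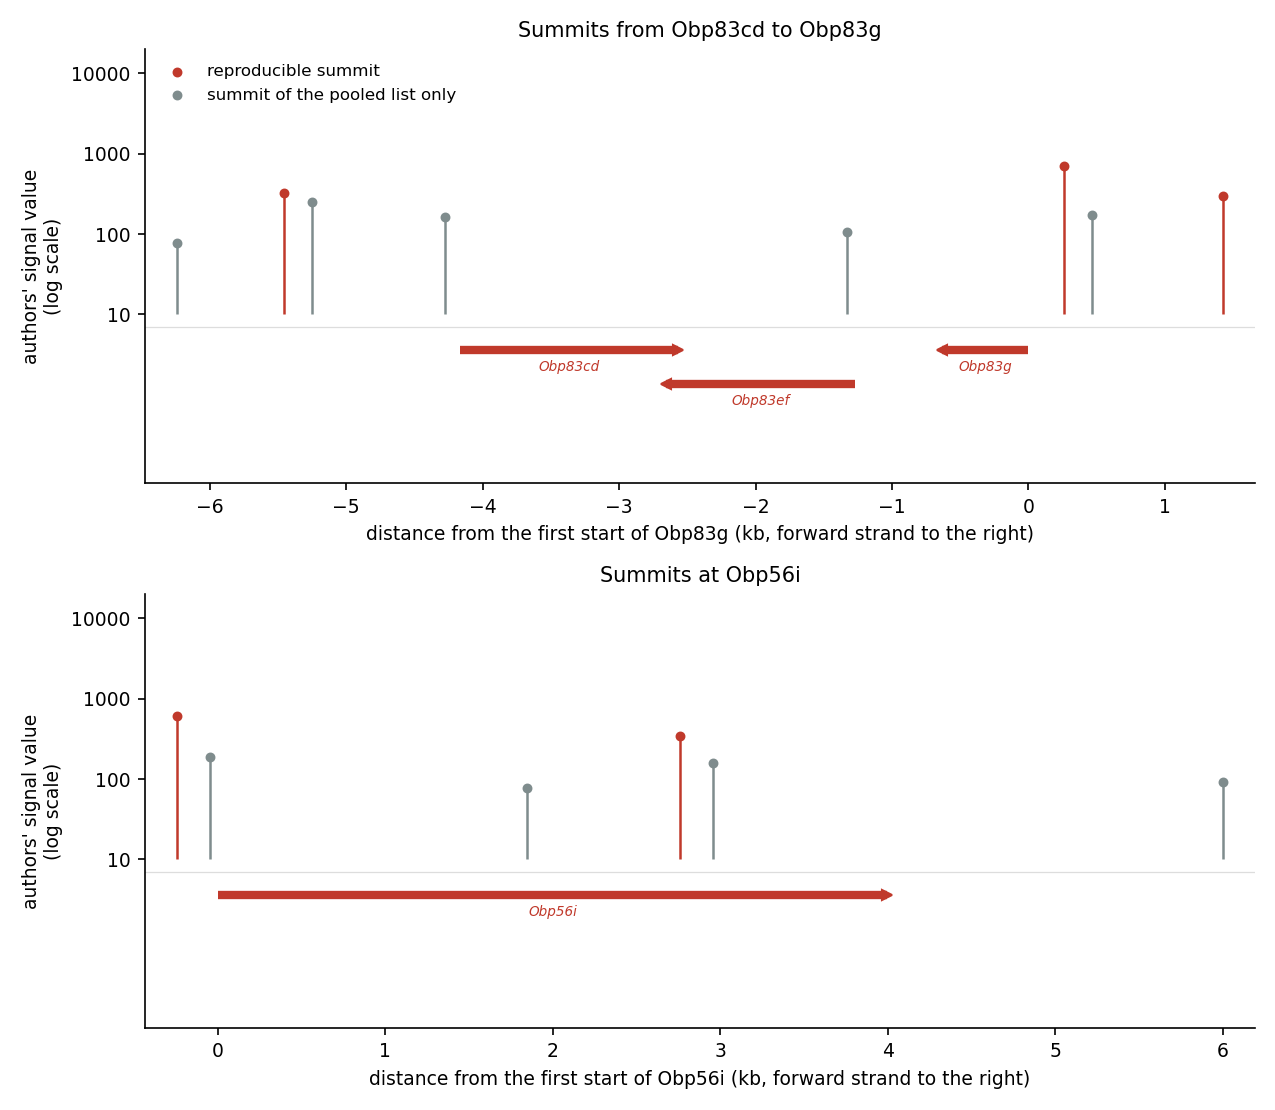
Summits along the Obp83cd to Obp83g cluster (top) and along Obp56i (bottom), with distance from the start of Obp83g or the first start of Obp56i in kb on the horizontal axis and the authors' signal value on a log axis. Red points are reproducible summits and grey points are summits of the pooled list only; the strongest in each panel stand 0.261 kb upstream of Obp83g (701) and 0.246 kb upstream of Obp56i (615.1).

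Obp57d, Obp83cd, Obp83ef and Obp99c were in all 4 replicate lists and in the pooled list without reaching the reproducible one. Obp57d, which with its neighbour Obp57e affects the response to fatty acids of host plants and the choice of egg-laying site, had a summit at chr2R:20550095. That summit lay 22 bp downstream of the start, in the 5' untranslated region (204.3, rank 11392). The cuticle protein gene Cpr57A has the same start there, so the summit belongs to both models. Replicates 1 to 4 ranked it 16276, 9597, 18930 and 12082.

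Obp83cd and Obp83ef each encode a protein with a pair of odorant-binding domains, and their 3' ends overlap on opposite strands. The Obp83cd summit lay 105 bp upstream of its start (161.9, rank 14023) and ranked 12968, 9754, 12784 and 17765 in replicates 1 to 4. The Obp83ef summit lay 62 bp inside the gene, in its coding exon (106.8, rank 19364). The strongest summit of Obp83ef ranked 17633, 21594, 20757 and 18655 in replicates 1 to 4, and in replicate 3 it stood 438 bp upstream of the start rather than inside the gene. These ranks are all lower than those of Obp83g in the same replicates.

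At Obp99c the strongest pooled summit was 60 bp downstream of the inner start, at chr3R:29686724 (125.5, rank 17133). The gene's strongest summit ranked 16721, 11421, 17760 and 21342 in the 4 replicates. In replicate 3 it was another summit, 589 bp downstream of a start. The pooled list had a further pair of weaker summits in the gene's introns, at ranks 29820 and 24435.

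The other 5 Obp genes with a pooled summit were Obp56a, Obp46a, Obp99d, Obp51a and Obp99a, named after their values were seen. Obp56a was the nearest to the reproducible list, its summit being 147 bp upstream (220.4, rank 10583), and replicate 2 had none there. Obp46a (rank 17894) and Obp99d (rank 18751) were each in 3 replicate lists. Obp51a (rank 20044) and Obp99a (rank 29232) were in 2 replicate lists. The Obp51a summit lies in an intron of hbs, the gene that contains Obp51a, and the Obp99a summit in an intron of its neighbour ppk30. A further 7 Obp genes had a summit in a replicate list but not in the pooled list, at ranks between 21450 and 28711. The deposited −log10 q-values of the summits at those 7 genes were 1.13 or lower, and no q-value cut-off was applied in counting. The pooled summits of Obp99a, Obp51a and Obp83ef had 0.45, 1.2 and 1.29. In replicate 4 the strongest summits of Obp83ef and Obp99c had 1.01 and 0.784. Each reproducible summit at an Obp gene had 4.32.

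**Figure D3:**
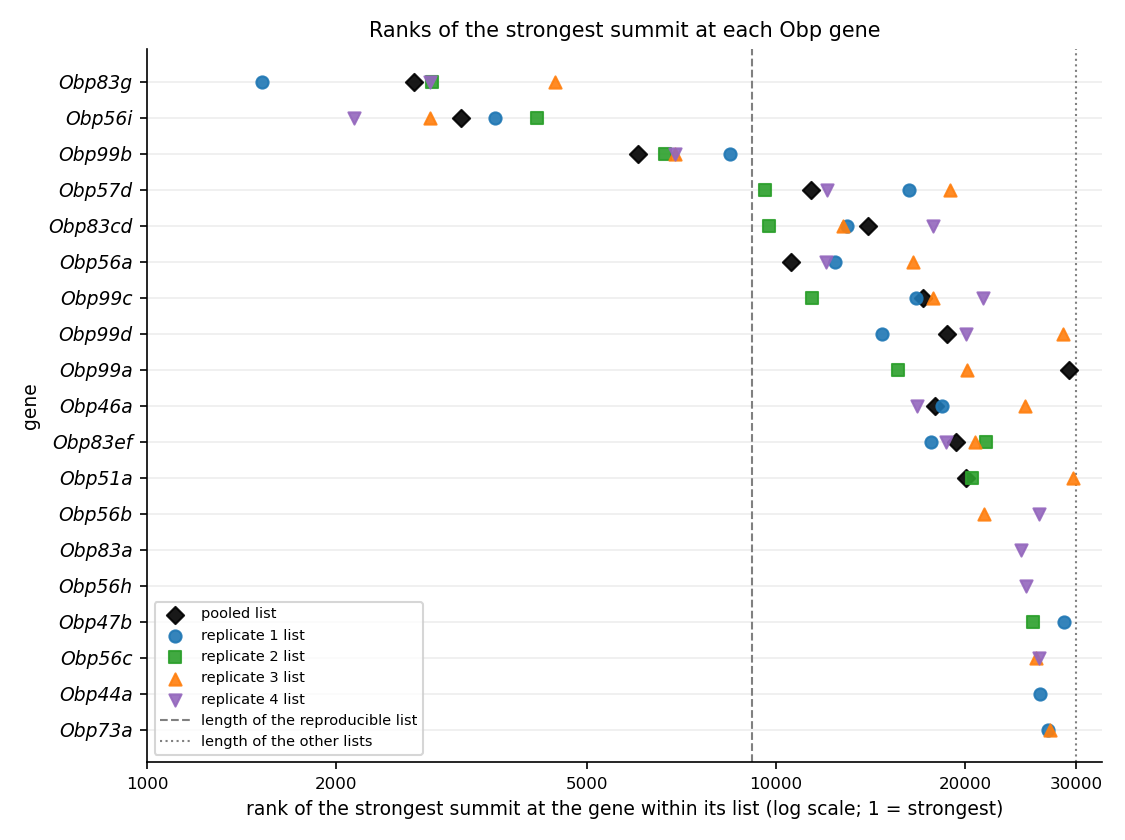
Rank (log axis, 1 = strongest) of the strongest summit at each of the 19 Obp genes with a summit in any replicate list, in the pooled list and in replicates 1 to 4. Obp83g, Obp56i and Obp99b lie left of the dashed line at 9154, the length of the reproducible list, in all 4 replicates, and no other gene has any point left of it.

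Of the 21 distinct pooled summits at Obp genes, 15 were upstream of the nearest start of the gene and 14 within 500 bp of a start. All 4 replicates matched 6 of them within 100 bp. Another protein-coding gene contained the summit, or had a start within 1 kb of it, at 6. The 4 reproducible summits were all upstream of the nearest start, and 3 of them were matched in all 4 replicates. Only summits within 1 kb of a start or inside these mostly short genes were counted, which by itself favours nearness to a start. Both lists were made from 3 of the 4 replicates, so matches in those are not independent of the lists. The same shares over all pooled or reproducible summits are not given here, so no difference from other summits is claimed.

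The genes stand in 10 clusters of at least 2 Obp genes with gaps of at most 20 kb, which hold 33 of the 51, and 18 are alone. The clusters are Obp50a to Obp50e, Obp56a to Obp56f, Obp57c to Obp57a, Obp57e with Obp57d, Obp59a with Obp58b, Obp58c and Obp58d, Obp83a with Obp83b, Obp83cd to Obp83g, Obp99a with Obp99c, Obp99d with Obp99b, and Obp19a to Obp19d. Obp50b and Obp50c have the same span in the models (chr2R:14371186-14373006) and cannot be told apart. A reproducible summit marked a gene in 2 of the clusters, Obp83cd to Obp83g and Obp99d with Obp99b. In 5 clusters no gene had a pooled summit, and 9 of the 12 genes with one were in clusters.

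The counts by arm were small. On 3R, 7 of 12 Obp genes had a pooled summit and 2 a reproducible one, where 43.4% and 29.3% of all genes did. On 2R, which holds 29 Obp genes, those counts were 5 and 1, with 41.6% and 27.9% of all genes there. None of the 6 Obp genes on the X chromosome (Obp8a, Obp18a and Obp19a to Obp19d) had a summit in the pooled list, an arm where 52.6% of genes did. The pairs on 2L (Obp22a and Obp28a) and on 3L (Obp69a and Obp73a) had none either, where 39.2% and 45.4% of all genes did. Genes of a cluster are not independent here. The 7 genes on 3R stand in the clusters Obp83cd to Obp83g, Obp99a with Obp99c and Obp99d with Obp99b. On the X, Obp19a to Obp19d form 1 cluster. Shares of genes of at most 2 kb were not computed by arm, so no difference between arms is claimed.

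Within 5 kb of its span, 30 of 51 Obp genes (58.8%) had a pooled summit, against 66.6% of all genes and 58.7% of those of at most 2 kb. A reproducible summit lay within those bounds for 21 (41.2%), against 52.3% and 43.6%. At this distance the Obp shares were thus near those of short genes. For 8 clusters or lone genes, with 16 Obp genes, the pooled list had no summit in the span of the whole cluster or within 5 kb of it. They were Obp50a to Obp50e, Obp19a to Obp19d, Obp83a with Obp83b, Obp8a, Obp18a, Obp47a, Obp56g and Obp69a. Obp83a and Obp83b encode the antennal proteins OS-F and OS-E, and Obp83a had a summit in replicate 4 alone (rank 24506).

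Measured from the nearest start, the closest reproducible summit was a median of 10732 bp away for Obp genes (quartiles 2708 and 16883 bp). For all protein-coding genes on arms with peaks the median was 5761 bp, and for those of at most 2 kb it was 7270 bp. It was over 10 kb away for 26 Obp genes (51%), against 36.6% of all genes and 41.4% of those of at most 2 kb. Genes of a cluster can share their nearest summit, as all genes from Obp50a to Obp50e do. The Obp median and share therefore do not rest on 51 independent distances. For the pooled list the Obp median was 3653 bp, against 2359 bp for all genes and 3698 bp for those of at most 2 kb. In the pooled list the median distance of Obp genes was therefore close to that of other short genes.

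Well inside the 1 kb limit were Obp56i and Obp99b, with a reproducible summit 246 bp from a start, and Obp83g at 261 bp, each measured to the gene's nearest summit. Just outside were Obp99c at 1052 bp and Obp28a at 1061 bp. The summit near Obp28a (chr2L:7496304, 390.7, rank 5618) lies in the 5' untranslated region of Ziz, 3 bp from the start of that gene. Obp83cd followed at 1291 bp (325.3), then Obp83ef at 1529 bp, whose nearest summit is the one at Obp83g. Obp84a was 1941 bp from a summit of rank 326 (2375), which lies inside CG1227. It is in a 5' untranslated region there, 117 bp upstream of that gene's nearest start. Obp57d was 1986 bp from a summit that stands 13 bp upstream of BORCS7. Taking 2 kb in place of 1 kb gave 9 of 51 Obp genes with a reproducible summit, against 4663 of 13968 genes in all (33.4%). The share of genes of at most 2 kb was not computed at that distance.

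The strongest summit near any Obp gene was 1865 bp upstream of the first start of Obp99c, at chr3R:29691176, with a signal value of 9530 and rank 17. It ranked 24, 20, 17 and 14 in replicates 1 to 4, with signal values of 1440, 2211, 2957 and 3001. It lies 1415 bp upstream of the divergently transcribed dmrt99B, another gene of the DMRT family, and is nearer to that gene than to Obp99c. Weaker reproducible summits flank it, at 29690363 (387.7) and 29692074 (415.1). Its window, printed above, is the one with the Doublesex core.

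From Obp99a to Obp99b, counting the neighbour at either end, stand 13 protein-coding genes, among them 4 Obp genes and Dup99B, a peptide of the ejaculatory duct that acts on mated females. The 46240 bp from the first base of Obp99a to 1 kb past Obp99b held 6 reproducible summits, 130 per Mb, against 68.4 per Mb over the genome, and 21 pooled summits, 454 per Mb against 224. The genome rates are over the full length of the arms. Among the 6 are the summit of rank 17 beside dmrt99B and the weaker ones that flank it. Only 1 of the 6, at Obp99b, was within 1 kb of an Obp start. Obp99d, which faces Dup99B, had a pooled summit 29 bp downstream of its start (111.6) that is also 843 bp from the start of Dup99B.

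**Figure D4:**
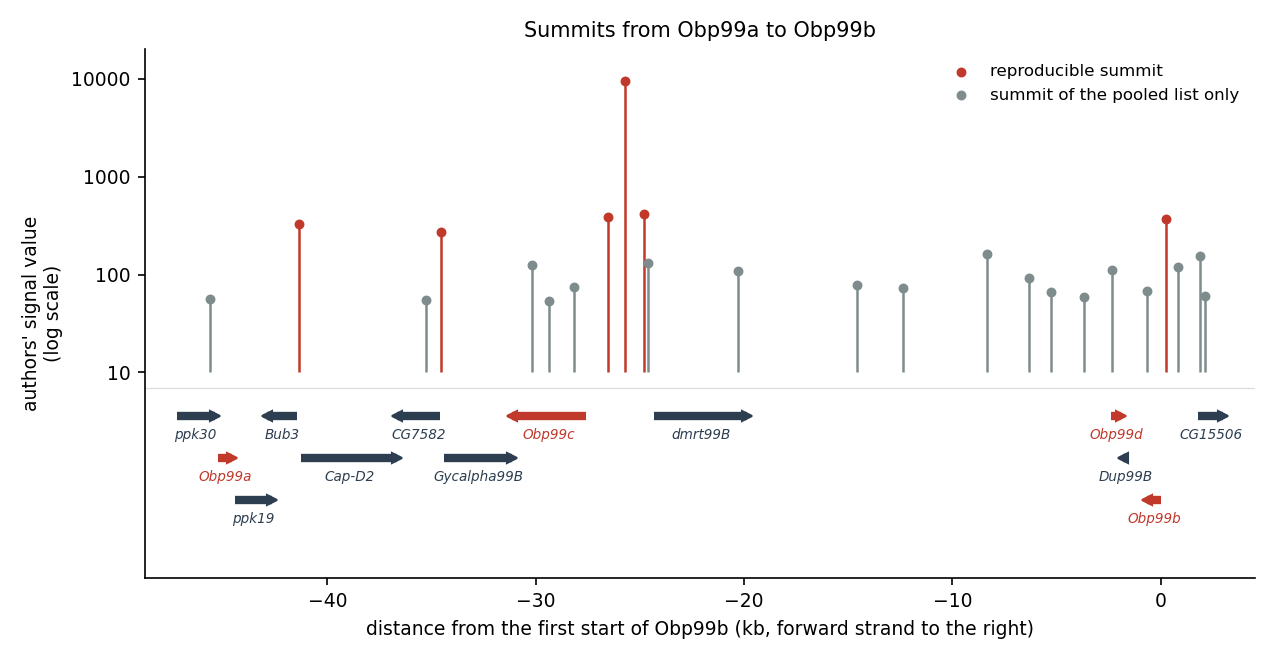
Summits from Obp99a to Obp99b, with distance from the first start of Obp99b in kb on the horizontal axis and the authors' signal value on a log axis; Obp genes are red and other protein-coding genes dark, with arrows for the strand. Red points are reproducible summits and grey points are summits of the pooled list only. The highest point (9530) stands between Obp99c and dmrt99B, and the reproducible summit at the right (368.5) is 0.246 kb upstream of Obp99b.

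Away from chromosome 3R, Obp49a, which is known for its part in the suppression of sweet taste by bitter compounds, had no summit in any list by the 1 kb rule. A summit of rank 577 (1834) stood 3499 bp upstream of it, at chr2R:12694454, and was nearer to CG8768. It ranked 547, 772, 644 and 449 in replicates 1 to 4. Obp59a, known for a part in humidity sensing, had no pooled summit.

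The core recognition sequence of Doublesex, ACAATGT on either strand, was not found within 50 bp of any of the 4 reproducible summits at Obp genes. It was present at 738 of all 9154 reproducible summits (8.06%). None of the 21 pooled summits at Obp genes had it either, against 4.78% of all 30000. Within 100 bp the counts were again 0 of 4 and 0 of 21, against 10.9% and 7.22%. The variant ACAAAGT was at 0 of 4 within 50 bp, against 6.84%, and the longer consensus, which can hold the core, at 0 of 4, against 6.07%. Within 100 bp the longer consensus was found at 1 of 4, that of Obp83g, centred 62 bp from the summit, against 8.5% of all reproducible summits. With 4 and 21 summits these shares allow no statement on a difference.

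The core does occur in the Obp genes. A copy lay within 1 kb of a start or in the gene for 23 of 51 (45.1%), against 49.8% of all protein-coding genes and 31.8% of those of at most 2 kb. None of these 23 genes had a reproducible summit and 1, Obp83ef, had a pooled one (4.35%). Of the 2075 protein-coding genes of at most 2 kb with a core, 393 (18.9%) had a reproducible summit and 708 (34.1%) a pooled one. Of all 6955 protein-coding genes with a core, those counts were 2657 (38.2%) and 3727 (53.6%). The 22 distinct copies were at least 2054 bp from any reproducible summit. The smallest distance to a pooled summit was 399 bp, for a copy in Obp73a, and the median was 5342 bp. These distances cover the reproducible and pooled lists only, and summits of the single replicate lists can lie nearer. Obp56c, for example, had a core at 19700456 to 19700462. Its nearby summits stood at 19700321 in replicate 3 (rank 25975) and at 19700315 in replicate 4 (rank 26220).

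Other genes of the same sensory system were counted by the same rule. Odorant, gustatory and ionotropic receptor genes, which encode the receptors near which many Obp proteins act, had a reproducible summit at 3 of 179 (1.68%): Ir60a (1878), Or65a (848.9) and Gr77a (296.2). In the pooled list they numbered 15 (8.38%), and in all 4 replicates 8 (4.47%). The CheA and CheB genes, another family of small secreted proteins with members in gustatory bristles, had one at 2 of 20 (10%), CheB42c (467.9) and CheB38c (377.1), and 6 (30%) in the pooled list. Of all protein-coding genes, 28.9% had a reproducible summit, 43.9% a pooled one and 35.5% one in all 4 replicates. The pooled share of Obp genes, 23.5%, stood between those 2 families, and no test of the differences was made. Median lengths were 1691 bp for the receptor genes, 789 bp for CheA and CheB genes and 788 bp for Obp genes, and the shares were not matched for length.

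Among 11 genes for other proteins of the sensillum, 3 (27.3%) had a reproducible summit, against 28.9% of all genes, and 5 (45.5%) a pooled one, against 43.9%. The strongest was 911 bp upstream of Snmp2 (1614), a CD36-type membrane protein. EbpIII, which encodes an ejaculatory bulb protein of a family of small carriers found in antennae, had one 75 bp downstream of its start (1006). The third was Os-C (331.5), which lies beside dsx itself, its summit 11092 bp upstream of that gene. The coreceptor gene Orco had a pooled summit only (161.3), and lush, the Obp gene for the male pheromone cis-vaccenyl acetate that is not named by the Obp rule, had none. Of 5 regulators of olfactory sensilla, pdm3 alone had a reproducible summit (642.5, in the gene body), and 4 of 5 had a pooled one, in genes with a median length of 18988 bp.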

How the data were processed

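ChIP-seq of 4 biological replicates of 1 group was analysed from deposited peak lists on dm6. Per the deposited text notes, the peaks of every replicate were called with 1 control file, and the pooled and reproducible lists were made from replicates 2, 3 and 4 without replicate 1. Summits of the reproducible list passed a threshold of irreproducible discovery rate. Neither that threshold nor the aligner or peak caller is given in the sources used here. The deposited signal score of each summit is the authors' value and is not normalized between lists. The deposited −log10 q-value reaches a common ceiling, so ranks do not rest on it. The deposited summit offset counts bp from the interval's start, and positions are printed 1-based.

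Lists of 30000 summits have a fixed length, so weak sites can enter the list of a weaker sample. No q-value cut-off was applied, so summits with low −log10 q-values count as well. Signal tracks were not analysed here. Ensembl release 115 supplied the gene models and sequence came from RefSeq's copy of the same assembly, with arm lengths compared. A gene counted where a summit lay within 1000 bp of a transcript start or in its span. Shoulders are summits a short way above a stronger one in coordinate. Motifs were sought on both strands. No hypothesis test was made except Dixon's ratio, used to look for an outlying replicate. Counts stand beside the share of all protein-coding genes, or of those of at most 2000 bp.

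The text names every Obp gene with a reproducible summit, then those with a pooled summit and a summit in all 4 replicate lists, each cluster, the genes at named summits, and at most 4 genes of each comparison list by strength. Genes at the limits of the 1 kb rule and beside strong summits were named after their values were seen. The genes and lists were chosen with earlier results of these data known. Alternatives covered distances, gene body, list lengths, shoulders, replicates left out, match distance, cluster gap and motif. Counting steps were tested on simulated summits with known answers. Python 3.11.15, numpy 2.4.6, pandas 2.3.3 and matplotlib 3.10.9 were used.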

Additional observations from a re-analysis of the deposited data

Results flagged for a closer look

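The rank of the strongest Obp99b summit set replicate 1 apart. It was 8468 in replicate 1, against 6673, 6906 and 6899 in replicates 2, 3 and 4, and the gap to the nearest of them over the whole range was 0.870, above Dixon's 95% critical value for 4 samples. Of 8 measures checked, this was the only one past that value, and chance flags about 1 in 20 groups. Replicate 1 still held the summit within 100 bp, and the gene had a summit in all 4 lists.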

How the results depend on the processing

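Of 49 alternatives, 38 kept the value near that reported, which is not a measure of robustness. Some could not move: ranks in the pooled list equal those in the reproducible list, which is its strongest part. Leaving out a replicate also cannot lower the number of genes in all remaining lists. The tolerance was wide, as 17 Obp genes against 12 in the pooled list counted as near. The 3 Obp genes with a reproducible summit were the same genes at 500 bp, from starts alone, without shoulders and in replicate 1 taken alone at the same list length. With the list limited to summits of above-median signal value, Obp56i and Obp83g were left and Obp99b was lost (2 genes). The count was 9 at 2000 bp and 1 (Obp56i) with the gene body alone, where the upstream summits no longer count. The mean per replicate was 8 with the strongest 20000 summits and 3.5 with the strongest 10000, and the genes in all 4 lists fell to 3 (Obp56i, Obp83g and Obp99b) with the strongest 10000, since fewer summits are counted. Leaving out 1 replicate gave a mean of 12.3 to 14 genes, 7 to 10 genes in all remaining lists (10 without replicate 2, which adds Obp46a, Obp56a and Obp99d) and 3 to 4 matched reproducible summits. The pooled count ran from 10 to 17. No paired analysis was possible because there is 1 group. Depth is unknown, so a gene without a summit is not shown to be unbound.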

Other observations

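The Obp83cd to Obp83g cluster is flanked by reproducible summits on both sides, at 5.459 kb below the Obp83g start (325.3, rank 7045) and at 1.428 kb above it (299.2, rank 7737), in addition to the summit at Obp83g.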
